A study of Sus scrofa domesticus with 4 samples.

Results

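The genes of the cytosolic ribosomal proteins, the proteins that together with ribosomal RNA make up the ribosomes of the cytoplasm, were examined in the anterior pituitary of gilts (young female pigs) in early pregnancy and in the estrous cycle. Members were all probes whose RefSeq accession belongs to a pig gene with a symbol of the RPL, RPS, RPLP or RPSA series, leaving out S6 kinases and near-copies outside the series. This gave 28 genes with 152 probes, out of 2459 genes with a named probe. Of the 28 genes, 15 encode proteins of the large subunit and 13 proteins of the small subunit. A further 52 symbols that meet the rule in the NCBI table of pig genes had no probe named here, among them RPLP1, RPLP2, RPS6 and RPS27A. The tissue came from 8 gilts of a Large White x Polish Landrace cross, each of about 110 kg. The pregnant group (n = 4) had been bred naturally, carried conceptuses and was killed on days 12 to 13, and the cyclic group (n = 4) was killed on days 12 to 13 of the cycle. Each of 4 two-colour arrays, on which both RNAs compete for the same spots, held labelled RNA of 1 pregnant and 1 cyclic gilt. According to the labels of the samples, the pregnant RNA was green (Cy3) on arrays 1 and 3 and red (Cy5) on arrays 2 and 4.

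A ribosome reads messenger RNA on its small subunit and joins amino acids on its large subunit. The proteins of both subunits are needed in equal numbers, and their genes are therefore known as one of the most tightly co-regulated and most strongly transcribed groups of a cell. In mammals a shared pyrimidine-rich start of these messengers places their translation under the growth kinase mTOR, so that protein output can change with little change in RNA. In an endocrine gland such as the anterior pituitary the ribosomes also carry the synthesis of the secreted hormones.

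All 152 probes were well above background in the 8 channels and none was saturated, and 146 were tested. The other 6 probes (3 of RPSA and 1 each of RPL10, RPL14 and RPL29) lacked an unflagged spot on at least 3 arrays. The 146 tested probes all lay in the brightest 10% of the 21616 probes tested, with a median of 15.64 on the log2 intensity scale against 7.89 for all tested probes. Several probes were tested for 25 of the 28 genes, up to 18 for RPL5. Probes of a gene share their RNA and may overlap in sequence, so they are not replicates, and a gene is given below by its brightest tested probe. A dim area on array 4 covered 4943 spots (11.3%) and held 22 of the 152 probes, among them the sole probes of RPL27 and RPL36AL. The spread of the log2 ratios of all tested probes was widest on array 3 (SD 0.581, against 0.276 on the array with the narrowest). Of 12 listed marker genes of anterior pituitary endocrine cells 11 were tested. So were 4 of 6 listed markers of the posterior and intermediate lobes and neural tissue. Being tested asks only for signal above background, so it does not tell the lobes apart.

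No ribosomal protein gene passed the test between pregnant and cyclic gilts, set at an adjusted p below 0.05. In the limma fit, adjusted by Benjamini-Hochberg over 21616 probes, 0 of 146 member probes were called, against 0% of all probes, and the smallest adjusted p of a member was 0.234. At an unadjusted p under 0.05, limma gave 18 of the 146 probes (12.3%, against 18.1% of all probes). Of these, 4 were higher in pregnant gilts (2.74%, against 10.4%) and 14 lower (9.59%, against 7.62%). The 14 lower probes belonged to RPL6 (9), RPL7 (3) and RPL5 (2), and the 4 higher probes to RPS21 (2), RPS20 (1) and RPLP0 (1). The share of higher probes among all probes at an unadjusted p under 0.05 was 57.8%, and it was 71.1% with the scanner software's processed signals, 70.1% with the deposited value table and 82.2% with median centring in place of loess. On the ratio scale, log2 of pregnant over cyclic, the median of the 28 genes was 0.11 and that of all tested probes 0.01. The ratio was positive for 20 genes and negative for 8, and 53.1% of all tested probes were positive. Over all 146 member probes 68 ratios were positive and 78 negative, with a median of -0.01; with the mean over the probes of each gene, 19 of 28 genes were positive, with a median of 0.03. With pregnant RNA read as Cy3 on every array, as the labelling protocol words it, 6 of the 28 genes had a positive ratio.

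**Figure D1:**
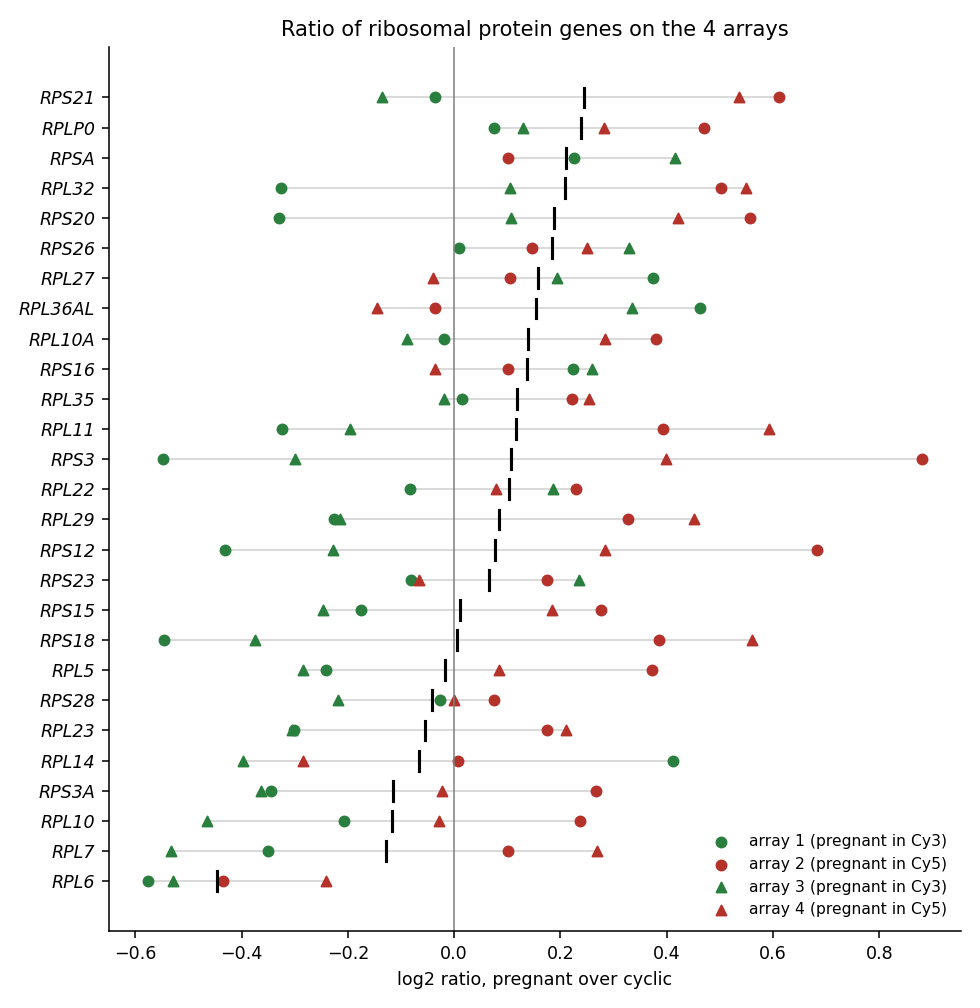
Log2 ratio of pregnant over cyclic gilts (x axis) for 27 of the 28 ribosomal protein genes (y axis), each by its brightest tested probe. Points are the arrays, coloured by the dye of the pregnant RNA, and black ticks the fitted ratios. RPL6 lies lowest at -0.45 and RPLP0 and RPS21 highest at 0.24, and for most genes the 2 arrays with pregnant RNA in Cy5 lie to the right of the other 2.

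RPL6 (NM_001044542), a large-subunit protein that bacteria lack, had the lowest ratio of the 28 genes. Its log2 ratios were -0.58, -0.43, -0.53 and -0.24 on arrays 1 to 4. With loess all 4 arrays were thus below 0, in both dye orientations. The fitted ratio was -0.45 ± 0.15 (SD, n = 4 arrays; SE 0.081), a level 1.36-fold lower in pregnant gilts, with an adjusted p of 0.234 by limma. The normalised log2 level of RPL6 was 15.44, 15.74, 15.44 and 15.79 in the pregnant gilts of arrays 1 to 4 and 16.02, 16.18, 15.97 and 16.03 in the cyclic gilts. Every pregnant gilt was below every cyclic gilt. Such a separation with pregnant gilts lower was found for 1.03% of all tested probes with 4 arrays, and for 6 of 129 member probes (4.65%), all 6 of them probes of RPL6.

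The probes of RPL6 fell into 2 sets. Of the 13 tested probes, 9 had fitted ratios from -0.68 to -0.44, and all 36 of their single-array ratios were negative, from -0.80 to -0.17. The other 4 probes had ratios from -0.20 to 0.04, with 11 of 14 single-array ratios negative. Which transcripts each set detects cannot be told from the probe annotation used here. Against the median of the other 27 genes on the same array, which removes whatever all ribosomal protein genes share there, RPL6 stood at -0.49, -0.70, -0.33 and -0.49 on the log2 scale. It was below that median on all 4 arrays in 9 of 9 processing settings. These are the settings that take the dyes from the sample labels and give array values of their own. They process the same 4 arrays, and RPL6 was the gene with the lowest ratio, so this is a description. With the mean over all its probes in place of the brightest, the difference from the other genes was -0.39, -0.54, -0.26 and -0.51. Calls in RPL6 moved with the model. When limma fitted the 2 channels separately, with the 8 gilts as samples, it called 8 member probes, all of RPL6 and all lower in pregnant gilts, with adjusted p from 0.00975 to 0.0309, where 5.27% of all probes were called and 1.96% were called lower. Without array 1 limma called 9 member probes, all lower (8 of RPL6 and 1 of RPL5), where 16.8% of all probes were called and 4.96% were called lower, and without array 2, 3 or 4 it called none.

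**Figure D2:**
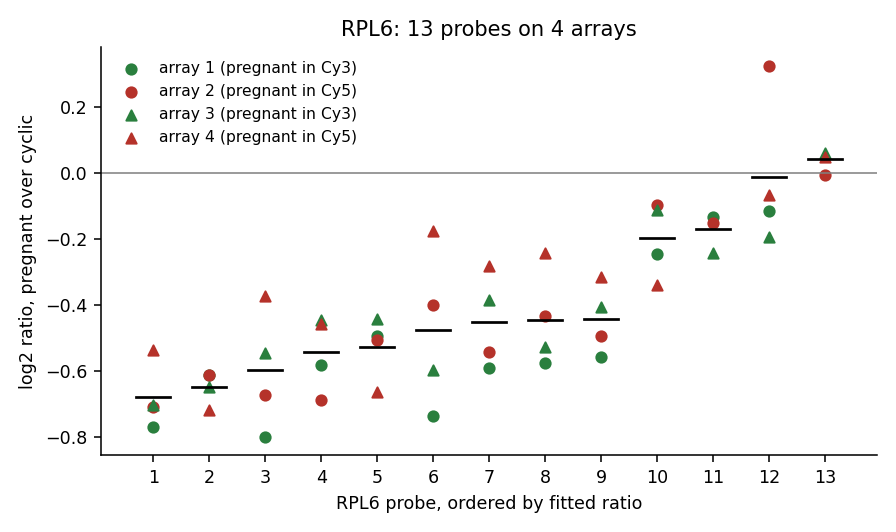
Log2 ratio of pregnant over cyclic gilts (y axis) for each of the 13 tested probes of RPL6 (x axis), with 1 point for each array, coloured by the dye of the pregnant RNA, and a black line for the fitted ratio. The 9 probes to the left lie between -0.68 and -0.44 in fitted ratio with every array below 0, and the 4 others lie between -0.20 and 0.04.

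RPL5 (NM_001114284) and RPL11 (NM_001001638) enter the large subunit together with its smallest RNA, and when free they bind MDM2, the ligase that holds p53 low. The ratios of RPL5 on arrays 1 to 4 were -0.24, 0.37, -0.28 and 0.08, which gave -0.02 ± 0.31 (SD, n = 4). The sign split by dye orientation. The 18 tested probes of RPL5 had ratios from -0.40 to 0.01 with a median of -0.18, and 17 of them were negative, so the brightest probe lay near the upper end of its gene. RPL11 had ratios of -0.32, 0.39, -0.20 and 0.59, giving 0.12 ± 0.45 (SD, n = 4). Here too arrays 1 and 3 were negative and arrays 2 and 4 positive. In neither gene did the ratio of the brightest probe stand clear of the spread over arrays. Of the 15 RPL5 probes with 4 arrays, 2 were negative on all 4. At an unadjusted p under 0.05 by limma, 2 of the 18 RPL5 probes were lower.

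RPL7 (NM_001113217), a large-subunit protein with a bacterial counterpart, was another gene with many probes on one side of 0. Its brightest probe gave -0.35, 0.10, -0.53 and 0.27 on arrays 1 to 4 and a ratio of -0.13 ± 0.38 (SD, n = 4; adjusted p = 0.46 by limma). The array values again split by dye orientation. All 14 tested probes of RPL7 were negative, from -0.27 to -0.00. RPL10, which joins the large subunit late and is needed for it to take part in translation, gave -0.21, 0.24, -0.47 and -0.03 and a ratio of -0.12 ± 0.30 (SD, n = 4). Only array 2 was positive, and all 4 tested probes of RPL10 had a negative ratio.

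Besides RPLP0, described next, RPL32 and RPL10A were the large-subunit genes with 5 or more probes and a positive ratio. RPL32 had -0.32, 0.50, 0.11 and 0.55 on arrays 1 to 4, a ratio of 0.21 ± 0.41 (SD, n = 4), and 5 of 7 probes were positive. RPL10A, which forms the mobile stalk beside the exit of spent transfer RNA, had -0.02, 0.38, -0.09 and 0.28, a ratio of 0.14 ± 0.23 (SD, n = 4), and 6 of 8 probes were positive. In both genes arrays 2 and 4 were the highest. RPL27 and RPL36AL, each with 1 probe in the dim area, ran the other way, as did RPS16, whose 2 probes lay outside it. RPL27 had ratios of 0.37, 0.10, 0.19 and -0.04 and RPL36AL of 0.46, -0.04, 0.33 and -0.15, so arrays 1 and 3 were above arrays 2 and 4. The log2 levels on array 4 were 11.42 and 11.45 for RPL27 and 9.04 and 9.19 for RPL36AL, while on the other arrays both genes were between 14.56 and 15.38. The remaining large-subunit genes RPL14, RPL22, RPL23, RPL29 and RPL35 had ratios from -0.07 (RPL14) to 0.12 (RPL35), with adjusted p from 0.444 to 0.853 by limma. Leaving out RPLP0, 8 of 14 large-subunit genes had a positive ratio, with a median of 0.09. Of the 83 tested probes of these 14 genes 26 were positive, with a median of -0.07. RPL5, RPL6 and RPL7 held 18, 13 and 14 of these probes, with 1, 1 and 0 positive. The probe count thus leans on these genes and does not describe the large subunit as a whole.

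RPLP0 (NM_001098598) is the base of the stalk that carries RPLP1 and RPLP2 and recruits elongation factors, and it is widely used as a reference gene in PCR. Its brightest probe gave 0.08, 0.47, 0.13 and 0.28 on arrays 1 to 4. All 4 arrays were positive, which held for 14.6% of all tested probes and for 6 of 129 member probes (4.65%). The ratio was 0.24 ± 0.18 (SD, n = 4), with an adjusted p of 0.255 by limma. The normalised log2 levels were 16.51, 16.64, 16.56 and 16.47 in the pregnant gilts and 16.43, 16.17, 16.42 and 16.19 in the cyclic gilts. Every pregnant gilt was above every cyclic gilt, as for 2.27% of all tested probes and no other member probe. The further probes of RPLP0 did not share this: of 13 tested probes 6 were positive, with ratios from -0.17 to 0.24 and a median of -0.01. Against the median of the other genes RPLP0 was above on every array with its brightest probe (0.25, 0.23, 0.34 and 0.05), and with the mean over its probes it stood at 0.11, -0.05, -0.00 and -0.07.

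Of the 13 small-subunit genes 11 had a positive ratio, with a median of 0.11, and of the 50 small-subunit probes 36 were positive, with a median of 0.04. RPS21 (NM_001097480) had the highest ratio. Its values on arrays 1 to 4 were -0.04, 0.61, -0.13 and 0.54, which gave 0.24 ± 0.38 (SD, n = 4) and an adjusted p of 0.245 by limma. Arrays 2 and 4 were clearly positive and arrays 1 and 3 just below 0. The levels of RPS21 overlapped between groups, at 16.21 to 16.34 in pregnant and 15.72 to 16.35 in cyclic gilts. All 3 probes of RPS21 were positive, from 0.15 to 0.24. Against the median of the other 27 genes, RPS21 stood at 0.14, 0.37, 0.08 and 0.31, and it was above that median on all 4 arrays in the same 9 settings. RPLP0 was above it in 8 of the 9, and no gene besides RPL6 and RPS21 kept one side on all 4 arrays in all 9. RPL10A was above it on all 4 arrays in 6 settings, and RPL10 and RPL23 were each below it in 6. The settings share the same 4 arrays, and RPL6 and RPS21 had the lowest and highest ratios, so these counts are a description.

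RPS20, a protein of the head of the small subunit, had ratios of -0.33, 0.56, 0.11 and 0.42, which gave 0.19 ± 0.39 (SD, n = 4), and all 7 of its probes were positive. RPS26, which lies where messenger RNA leaves the ribosome, had 0.01, 0.15, 0.33 and 0.25, all positive, and a ratio of 0.18 ± 0.14 (SD, n = 4), with its 3 probes between 0.16 and 0.18. The probes were close in fitted ratio but not on each array, since the others had -0.31 and -0.13 on array 1. The closeness in fitted ratio was not matched by a low p, since the adjusted p of RPS26 was 0.352 by limma. RPSA, which is also known as a laminin receptor precursor, had 0.22, 0.10 and 0.42 on arrays 1 to 3 and an outlier flag on array 4, so its fitted ratio of 0.21 ± 0.16 (SD, n = 3) rests on fewer arrays. It was the highest of the 3 tested probes of RPSA. The other 2, each with 4 arrays, had 0.11 and 0.02, and their single arrays were not all of the same sign.

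RPS3, which lines the entry of messenger RNA, had the widest spread of the 28 genes by the brightest probe. Its ratios were -0.55, 0.88, -0.30 and 0.40, and the ratio was 0.11 ± 0.65 (SD, n = 4). RPS18, a protein that bridges the head of the small subunit to the large one, gave -0.55, 0.38, -0.38 and 0.56 and a ratio of 0.01 ± 0.55 (SD, n = 4). RPS12 gave -0.43, 0.68, -0.23 and 0.28 and a ratio of 0.08 ± 0.50 (SD, n = 4). In these 3 genes both arrays with pregnant RNA in Cy3 were negative and both with pregnant RNA in Cy5 positive. RPS3A, which also lies at the exit of messenger RNA, and RPS28 were the small-subunit genes with a negative ratio. RPS3A had -0.34, 0.27, -0.36 and -0.02, giving -0.12 ± 0.30 (SD, n = 4), and 6 of its 8 probes were negative. RPS28 had -0.03, 0.07, -0.22 and 0.00, giving -0.04 ± 0.12 (SD, n = 4), with all 3 probes negative. RPS15, RPS16 and RPS23 had ratios of 0.01, 0.14 and 0.07. In RPS16, as in RPL27 and RPL36AL, arrays 1 and 3 (0.22 and 0.26) were above arrays 2 and 4 (0.10 and -0.04). Of the 4 probes of RPS23, 2 also had arrays 1 and 3 above arrays 2 and 4.

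The tested probes disagreed in sign in 12 of the 25 genes with several probes, were all positive in 10 and all negative in 3 (RPL7, RPL10 and RPS28). The 12 genes were RPL5, RPL6, RPL10A, RPL14, RPL23, RPL29, RPL32, RPLP0, RPS3A, RPS12, RPS18 and RPS23. The pooled SD of probes within a gene was 0.111 in log2 ratio, and the SD between the medians of the genes was 0.146.

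**Figure D3:**
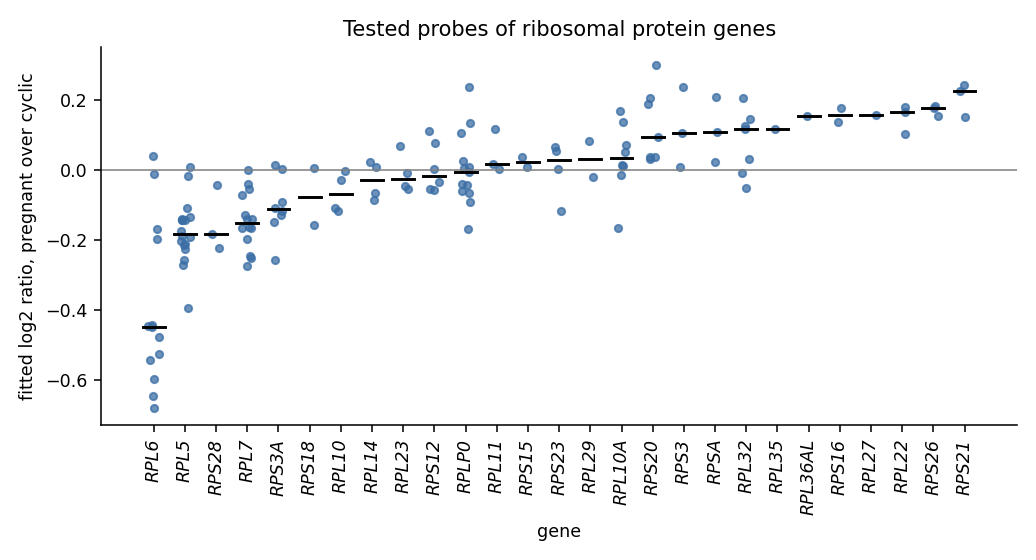
Fitted log2 ratio of pregnant over cyclic gilts (y axis) for the tested probes of 27 of the 28 genes (x axis), with 1 point for each probe and a black line for the median of each gene. The 13 probes of RPL6 reach from -0.68 to 0.04 and the 18 of RPL5 from -0.40 to 0.01, and all 14 of RPL7 lie at or below 0.

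The ratio of most ribosomal protein genes differed between the arrays with pregnant RNA in Cy5 and those with pregnant RNA in Cy3, which also hold different gilts. Over the 28 genes the median ratios of arrays 1 to 4 were -0.13, 0.25, -0.20 and 0.25, while the medians of all tested probes were -0.01, 0.02, 0.03 and 0.02. Of the genes measured, 9 of 28, 26 of 28, 10 of 28 and 19 of 27 were positive on the 4 arrays in the same order. The median over genes was -0.11 on the mean of arrays 1 and 3 and 0.21 on the mean of arrays 2 and 4. This split of the family median by sign was not seen with the deposited value table, where the medians were 0.13 and 0.21. Nor was it seen with processed signals, where they were 0.13 and 0.20. Both settings rest on the same processed signals and are not separate checks. The difference between the orientations, arrays 2 and 4 minus arrays 1 and 3, was positive in 22 of 28 genes with a median of 0.44, and its median over all tested probes was -0.01. Of the 27 genes with 4 arrays, 20 had both ratios with pregnant RNA in Cy5 above both others and 3 had them below. Over the 129 member probes with 4 arrays these counts were 79 (61.2%, against 23.6% of all probes) and 8 (6.20%, against 21.7%). The sign itself split by dye orientation in 44 member probes with Cy5 positive (34.1%, against 8.41%) and in 3 with Cy5 negative (2.33%, against 5.72%).

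The limma term for dye orientation called 0 of 146 member probes, as it called 0% of all probes, and the smallest adjusted p of a member probe was 0.532. At an unadjusted p under 0.05 limma gave 46 of 146 member probes (31.5%, against 9.3% of all probes), 44 of them higher with pregnant RNA in Cy5 (30.1%, against 5%) and 2 lower (1.37%, against 4.31%). By the brightest probe the difference was largest in RPS3 at 1.06, RPS18 at 0.93, RPS12 at 0.81 and RPL11 at 0.75. With the median over the probes of a gene, these had 1.06, 0.56, 0.66 and 0.23. RPS28 then had 1.10, against 0.16 by its brightest probe. In RPL6 the difference by the brightest probe was 0.21, smaller than the fitted ratio of -0.45. For the median gene 84.2% of the spread of the 4 ratios lay between the orientations, and for the median of all tested probes 39.1%. Across the 27 genes the arrays of one orientation resembled each other: Pearson's r was 0.56 for arrays 1 and 3 and 0.71 for arrays 2 and 4, and between orientations it ran from -0.41 (arrays 1 and 4) to 0.04 (arrays 2 and 3). Over all tested probes r was 0.45 and 0.34 within the orientations and 0.03 to 0.40 between them. These correlations are across genes of the same arrays, which are no independent replicates, and are given as a description.

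Brightness moved with this difference. The 73 brighter member probes had a median difference between orientations of 0.44 with 68 positive, and the dimmer 73 had 0.17 with 51 positive. The 240 probes of other genes that were at least as bright as the median member probe had a median of 0.38 with 193 positive, and their medians on arrays 1 to 4 were -0.32, 0.22, -0.11 and 0.27. Between 14 and 15 on the log2 intensity scale the median was 0.11 for 21 member probes and -0.14 for 222 others. Between 15 and 16 it was 0.22 for 61 member probes and 0.08 for 196 others, and between 16 and 17 it was 0.53 for 47 and 0.38 for 146. In the brightest step, between 17 and 18, the order was the other way, with 0.83 for 2 member probes and 1.38 for 25 others. The very bright probes outside the family therefore showed the same direction as the ribosomal protein genes, and the part of brightness in the result was not tested. The 4 tested proliferation markers also differed between arrays, with list medians of -0.08, -0.88, -1.87 and -0.02 on arrays 1 to 4, and the 11 endocrine markers had -0.55, 0.01, -0.18 and 0.28; their part was not tested either. In whole tissue, a change in the number of cells of a type and a change in RNA per cell cannot be told apart.

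**Figure D4:**
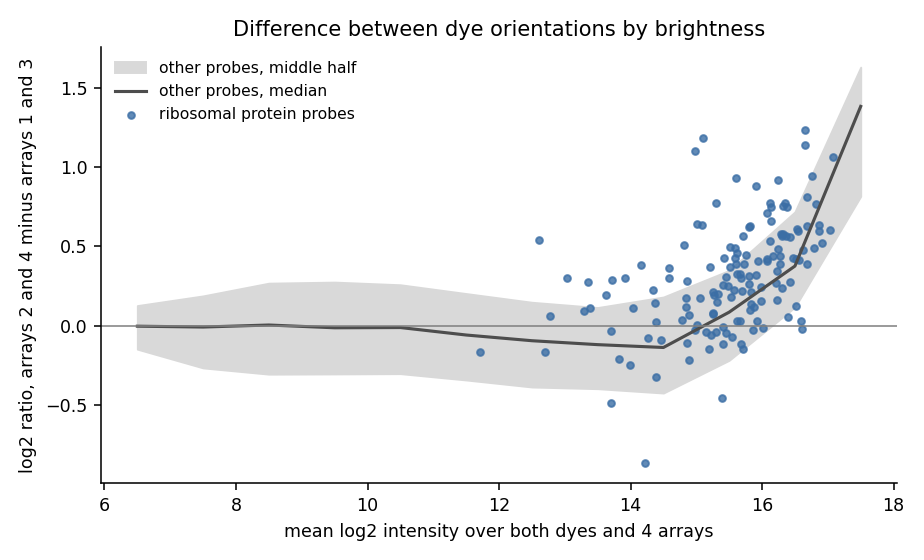
Difference in log2 ratio between arrays 2 and 4 and arrays 1 and 3 (y axis) against mean log2 intensity (x axis). Points are the 146 tested member probes, and the line with its band is the median and the middle 50% of the other tested probes in steps of 1 log2 unit. Both climb at the bright end: between 16 and 17 the median was 0.53 for members and 0.38 for others.

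The level of the whole family, unlike the place of RPL6 within it, moved with the normalisation. With loess the medians of the 28 genes on arrays 1 to 4 were -0.13, 0.25, -0.20 and 0.25. With median centring alone, which leaves any trend with brightness in place, they were -1.07, 1.23, -0.53 and 1.34, and with the processed signals of the scanner software -0.04, 0.19, 0.22 and 0.25. The sign on array 3 thus changed between these settings. The number of genes with a positive ratio was 20 with loess, 25 with processed signals, 25 with the deposited value table and 27 with median centring. The deposited value table holds ratios of the same processed signals. The median of all tested probes moved too, from 0.01 with loess to 0.08 with each of the other 3, and on array 3 from 0.03 with loess to 0.13 with processed signals. RPL6 had a negative fitted ratio in each of these settings, and it was -0.11 with Cy3 read as the pregnant dye on every array. With median centring its single arrays were not all below 0. On arrays 2 and 4 it stood at -0.71 and -0.51 against the other genes, where the median of the 28 genes was 1.23 and 1.34.

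**Figure D5:**
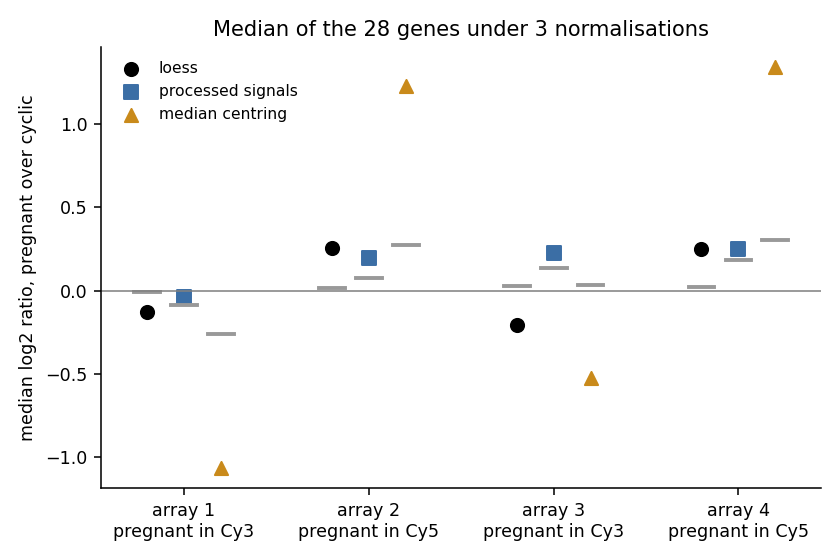
Median log2 ratio of pregnant over cyclic gilts over the 28 ribosomal protein genes (y axis) on arrays 1 to 4 (x axis) with loess, with processed signals and with median centring, and in grey the median of all tested probes. Arrays 2 and 4 lie above 0 under all 3, array 3 lies at -0.20 with loess and at 0.22 with processed signals, and median centring spreads the arrays from -1.07 to 1.34.

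Genes that act beside these proteins were measured too, each list with 0 called probes by limma. Of 11 further genes of the cytosolic ribosome 4 were on the array and tested, 2 positive and 2 negative. RPL26L1, a near-copy of RPL26, had 0.23 ± 0.15 (SD, n = 3), and RPL7L1 had -0.16 ± 0.22 (SD, n = 3). Of 44 listed translation factors 9 were tested, 4 positive and 5 negative, with a median of -0.02. Those with the smallest p were EIF3A, EIF4A1 and EIF4A3, at 0.10 ± 0.36, -0.07 ± 0.13 and -0.09 ± 0.13 (SD over 4, 4 and 3 arrays). EEF1A1, which delivers transfer RNA to the ribosome and was chosen here after its values were seen, had -0.59, 0.49, -0.29 and 0.56 on arrays 1 to 4. It split by dye orientation as RPS18 did, and 16 of its 17 probes had a positive difference between orientations. By the brightest probe of each gene, the list as a whole did not share this. Over the 9 tested factors that difference was positive in 4 and negative in 5, with a median of -0.05, and in EIF3A it was -0.60. The signs moved with the choice of probe. With the median over the probes of a gene, EIF4A1 and EIF4A3 turned positive, at 0.0055 and 0.16. EIF3A was then -0.17, with 1 of its 2 probes positive.

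Of 60 listed genes of ribosome assembly 5 were tested, 4 positive and 1 negative, with a median ratio of 0.04 and a median difference between orientations of -0.20. UTP3, a factor of small-subunit assembly, had 0.30 ± 0.43 (SD over arrays) with an adjusted p of 0.237 by limma, MYC, which drives transcription of ribosomal genes, had 0.11 ± 0.73, and NIP7 had -0.04 ± 0.17. Of 38 listed genes of mTOR and S6 kinase control 2 were tested, among them AKT1, a kinase upstream of mTOR, at -0.37 ± 0.37 (adjusted p = 0.267 by limma). MRPS18B, of the separate ribosome of mitochondria, had -0.19 ± 0.07, with an adjusted p of 0.291 by limma.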

How the data were processed

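RNA of 4 pregnant and 4 cyclic gilts was hybridised, 825 ng of cRNA per dye, to 4 two-colour Agilent arrays of design 026440. The deposited scanner files hold, per the file headers, spot and background intensity in Cy3 and Cy5 from Agilent Feature Extraction 10.7.3.1, the processed signals and Cy5 over Cy3 as a log10 ratio. The authors' deposited series table holds log2 ratios: set against the processed signals its columns had slopes of -1, 1, -1 and 1, so it is turned by the labels' dyes and not centred (medians 0.074, -0.076, -0.182 and -0.174). The build and the software behind that table are not given in the sources used here.

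Median signals were background-corrected (normexp, offset 50) and loess-normalised within arrays, with outlier-flagged spots left out. The scanner files used here hold medians, where means had been planned. The ratio was turned to pregnant over cyclic by the sample labels, which disagree with the labelling protocol. Probes entered the test if 1 group's channel, or both, exceeded background well on each of the 4 arrays and at least 3 arrays had an unflagged spot, which left 21616 probes, 19869 of them on 4 arrays. limma 3.58.1 in R 4.3.3 fitted the ratio with a dye term (lmFit, eBayes), with Benjamini-Hochberg adjustment over all tested probes. A value before ± is the fitted ratio and the value after it the SD over arrays. Levels of single gilts are per-channel values after loess and Aquantile normalisation and are open to dye bias. Intensities between probes are not comparable as levels of genes. Per the labels the gilts are separate animals, and 4 arrays limit the precision of every value. The fit was also run on ratios simulated from its own variance estimates, which checks the code and not how the real arrays behave.

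Gene names came from RefSeq accessions matched without versions to NCBI's pig gene table (5578 of 43603 probes). Members and lists were chosen with earlier results of these data known. Named with the ratio on every array were the 6 genes with the smallest p for pregnancy, the 4 with the largest difference between dye orientations, genes with at least 5 tested probes, RPLP0 and RPSA. The other genes with array values were added after the values were seen. Of the lists of other ribosome genes, translation factors, assembly and mTOR control the genes with the smallest p, at most 3 of each, were named, and marker lists are given only by counts and medians. Some genes are not reported by name here, and all counts and medians include them. There were 14 lists, all with 0 called probes. Folliculostellate markers had 2 tested genes, neural 4, endothelial 3, stromal 3, lymphocyte 2, myeloid 3 and erythrocyte 0. Their median ratios were -0.30, -0.00, -0.23, -0.36, 0.03 and -0.05, and none for erythrocytes.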

Additional observations from a re-analysis of the deposited data

Results flagged for a closer look

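In 13 ribosomal protein genes both arrays with pregnant RNA in Cy5 had a ratio of one sign and both arrays with pregnant RNA in Cy3 the opposite sign. The difference, arrays 2 and 4 minus arrays 1 and 3 on the log2 scale, was 1.06 in RPS3, 0.93 in RPS18, 0.81 in RPS12, 0.75 in RPL11, 0.66 in RPS21, 0.63 in RPL7, 0.61 in RPL29, 0.50 in RPL23, 0.49 in RPL5, 0.44 in RPS15, 0.39 in RPL10A and 0.16 in RPS28. In RPL36AL it was -0.49, with Cy3 positive. These values are of the brightest probe of each gene. With the median over the probes of a gene the difference was 1.10 in RPS28 and 0.23 in RPL11. The median of the 28 genes split the same way, with a difference of 0.44. With the deposited value table and with processed signals, which rest on the same signals, this median did not split by sign. It was 0.13 with pregnant RNA in Cy3 under both, and 0.21 and 0.20 in Cy5. By the limma term for dye orientation 0 of these differences passed the threshold, and the smallest adjusted p was 0.532. Over all tested probes with 4 arrays 8.41% split with Cy5 positive and 5.72% with Cy5 negative. What causes the split was not tested.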

How the results depend on the processing

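RPL6 kept a negative fitted ratio under every alternative run that gives a ratio. The median of the 28 genes stayed positive under all of them except the reading of pregnant RNA as Cy3 on every array. The number of arrays, 4, and the dim area of array 4 limit the precision, and all member probes were well above background. Probes called by limma for pregnancy numbered 0 in the report's setting, 1 with processed signals, 1 with the deposited table, 1 with an offset of 16, 2 without a dye term and 1047 with separate channels, of which 8 were member probes. With processed signals the median of the 28 genes on arrays with pregnant RNA in Cy3 was 0.13 and in Cy5 0.20, and in the deposited table the Cy3 median was 0.13. The Cy5 median was 0.23 with flagged spots kept, 0.23 with offset 16, 0.24 with scaling between arrays and 0.16 with the mean over probes. With median centring the Cy3 median was -0.78 and the Cy5 median 1.28. In the report's setting 6 of 129 member probes were positive on all 4 arrays (4.65%, against 14.6% of all probes). Negative on all 4 were 17 (13.2%, against 11.3%). Member probes of 1 sign on 4 arrays numbered 37 with processed signals, 43 with the deposited table, 0 with median centring and 47 with Cy3 everywhere. Those with orientations apart numbered 54 with processed signals. The shares of all probes under these other settings are not given, so these counts do not set the members apart. With Cy3 everywhere 6 genes were positive and the median was -0.22. The cause of these changes was not tested.

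Signs turned in these genes. With the deposited table they became RPL10 0.0012, RPL14 0.22, RPL23 0.060, RPL5 0.068, RPS28 0.042, NIP7 0.020 and RPL7L1 0.19. With processed signals they became RPL10 0.0011, RPL14 0.0071, RPL23 0.060, RPL5 0.068, RPS28 0.042 and NIP7 0.020. With median centring they became RPL10 0.095, RPL14 0.14, RPL23 0.16, RPL5 0.20, RPL7 0.094, RPS28 0.18, RPS3A 0.11, EIF4A1 0.058, EIF4A3 0.085, NIP7 0.080 and RPL7L1 0.032. With Cy3 everywhere they became RPL10A -0.19, RPL11 -0.38, RPL14 0.073, RPL22 -0.050, RPL29 -0.30, RPL32 -0.32, RPL35 -0.12, RPLP0 -0.14, RPS12 -0.41, RPS15 -0.22, RPS18 -0.47, RPS20 -0.30, RPS21 -0.33, RPS26 -0.014, RPS3 -0.53, EIF4A1 0.10, EIF4A3 0.037 and RPL7L1 0.13. Flagged spots kept gave RPL14 0.077 and RPL7L1 0.14, the mean over probes gave RPS18 -0.076, and scaling gave RPL5 0.016. The deposited table was also read with flagged spots kept, with 152 member probes against 146. Another probe or array can therefore stand for a gene there, and RPL14 and RPL7L1 turned in both of these runs.

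Leaving out 1 array at a time gave 0 to 3406 called probes for pregnancy (0 to 9 members) and 0 to 998 for dye orientation (0 to 1 members), the highest each time without array 1. Without array 3 the counts were 4 and 2. The Cy3 median ran from -0.20 to -0.11 and the Cy5 median from 0.21 to 0.25. Gene ratios that turned ran from -0.013 to 0.033 (RPS15), -0.023 to 0.18 (RPS12), -0.013 to 0.23 (RPS3), -0.27 to 0.14 (RPL14), -0.038 to 0.050 (RPS18), -0.014 to 0.15 (RPS23), -0.090 to 0.0050 (RPS28), -0.089 to 0.055 (RPL5), -0.15 to 0.37 (MYC) and -0.086 to 0.0057 (NIP7). Each ratio is a difference within a pair of gilts on 1 array, so the fits of ratios were paired and no further block was added. The comparison of single-gilt levels across arrays did not use the pairs. The fit of separate channels took them in through a correlation within spots.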
